A study of Mus musculus with 46 samples.

Results

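Hearts of hypothyroid mice that had been given thyroid hormone (TH) were compared between mice carrying the HrDR5 allele on both chromosomes (HrDR5/DR5, called mutant here) and wild-type (WT) mice. The comparison used 4 mutant and 4 WT heart libraries, 8 of the 46 libraries of a series on mouse heart and striatum. They were chosen by genotype, tissue and treatment as labelled, and no expression value entered the choice. All 8 hearts came from adult mice that had eaten low-iodine food with propylthiouracil (PTU), which blocks TH synthesis, for 15 days and had then received TH for 24 hours (PTU+TH). The time label of mutant PTU+TH replicate 1 gives the 15 days without the 24 hours, while its other labels place it in the PTU+TH group. Untreated hearts (3 mutant, 4 WT) and PTU hearts without TH (3 mutant, 4 WT) entered the same statistical fit and serve as comparisons. Sex, exact age, the TH dose and whether each library is 1 animal are not stated in the labels, so the spread between libraries may be partly technical.

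TH acts through the nuclear receptors encoded by Thra and Thrb, which bind response elements near target genes and recruit corepressors without hormone and coactivators with it. In the rodent heart TH is known for raising the fast myosin heavy chain gene Myh6, the calcium pump gene Atp2a2 and the pacemaker channel gene Hcn2, and for lowering the slow myosin gene Myh7. Hr encodes the nuclear corepressor hairless, which binds TH receptors and is itself a TH target gene in the brain. According to the title of the series, the allele is a deletion of 1 nucleotide that disturbs the response of Hr to TH.

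The 8 libraries held between 10.4 and 15.5 M gene counts. All 12 ventricular cardiomyocyte markers were detected, with summed levels of 65851 to 74407 CPM in mutant hearts and 83993 to 100740 CPM in WT hearts, where CPM are counts divided by library size and TMM factor and brought to one scale. Lung and thymus markers summed to at most 0.216 CPM in any library, and 6 of 9 were at 0 in all 8. Atrial markers summed to 2282 CPM in mutant replicate 4 and to 2607 CPM in WT replicate 3, against 619 to 736 CPM in the other 6 libraries. In bulk RNA, fewer cells of a type and less RNA per cell cannot be told apart.

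Hr (ENSMUSG00000022096) was the gene called lower in mutant PTU+TH hearts, and it had the smallest p of all genes. It had 16.3, 20.1, 16.1 and 12.4 CPM in mutant PTU+TH hearts, from 153 to 250 counts per library, against 72.4, 69.4, 80.6 and 80.4 CPM in WT PTU+TH hearts, from 811 to 1305 counts. The groups lay far apart: the highest mutant library reached 20.1 CPM and the lowest WT library 69.4 CPM. The means were 16.2 ± 3.15 CPM in mutant and 75.7 ± 5.66 CPM in WT hearts (SD, n = 4 each), so mutant hearts held 21.4% of the WT level. Hr fell by 2.22 ± 0.321 on the log2 scale in mutant against WT hearts (SE, 95% interval -2.89 to -1.56, adjusted p = 0.00675 by edgeR's quasi-likelihood test with Benjamini-Hochberg adjustment). The exact two-sided permutation test over the 8 libraries gave p = 0.0286, the smallest it can give with 4 against 4. Without mutant replicate 1 the adjusted p was 0.0631, and without mutant replicate 3 it was 0.0578, with log2 changes of -2.23 and -2.22.

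Hr was not called between the genotypes in the other hearts. With PTU alone Hr had 3.37, 2.78 and 1.37 CPM in mutant hearts and 1.65, 1.37, 2.04 and 3.68 CPM in WT hearts, which overlap (log2 change 0.23, adjusted p = 0.818). Untreated mutant hearts had 5.33, 3.13 and 18.8 CPM, 1 of them above all of the WT values of 16.3, 16.2, 15.4 and 15.6 CPM (log2 change -0.68, adjusted p = 0.839). The genotype difference after TH was lower than that with PTU by a log2 difference of -2.45 ± 0.533 (adjusted p = 0.0459). Against the untreated hearts the difference was -1.54 ± 0.474 and was not called (adjusted p = 0.212). Hr rose with TH in both genotypes: it was higher after TH than with PTU by 2.68 ± 0.409 in mutant hearts (adjusted p = 0.00215) and by 5.14 ± 0.378 in WT hearts (adjusted p = 3.36e-09), where 38 (0.268%) and 823 genes (5.81%) were called higher. In striatum after TH, Hr had 6.71, 19.2, 13.9 and 34.3 CPM in mutant and 30.6, 36.9, 21.1 and 43.8 CPM in WT libraries, and the groups overlapped. The log2 change in striatum was -0.84 ± 0.355, also lower in mutant, with an unadjusted p of 0.0270 by edgeR's quasi-likelihood test. It was not called (adjusted p = 1.00 in a fit of 24 striatum libraries).

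Cpox (ENSMUSG00000022742), which encodes coproporphyrinogen oxidase, an enzyme of haem synthesis, was the gene called higher in mutant PTU+TH hearts. It had 64.7, 67.1, 57.1 and 57.8 CPM in mutant hearts, against 24.7, 36.3, 31.8 and 40.7 CPM in WT hearts. Every mutant library was above every WT library, and the means of 61.7 ± 4.99 and 33.4 ± 6.80 CPM (SD, n = 4 each) put mutant hearts 1.85-fold higher. Cpox rose by 0.89 ± 0.146 on the log2 scale (95% interval 0.58 to 1.19, adjusted p = 0.0265 by edgeR's quasi-likelihood test). Its call was lost without any 1 of mutant replicates 1, 2 and 3 or of WT replicates 1, 2 and 3, where the adjusted p reached up to 0.217.

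Cpox was also called higher in mutant hearts with PTU alone. PTU hearts had 49.2, 43.3 and 43.4 CPM in mutant mice and 21.2, 24.7, 26.5 and 25.4 CPM in WT mice, again without overlap (log2 change 0.89 ± 0.157, adjusted p = 0.00271). Untreated hearts had 37.7, 35.6 and 34.6 CPM in mutant mice and 37.2, 35.8, 33.9 and 43.3 CPM in WT mice, with a log2 change of -0.06 ± 0.160 (adjusted p = 0.960). The genotype difference after TH differed from that with PTU by -0.01 ± 0.212 on the log2 scale (adjusted p = 1.00), and it exceeded that in untreated hearts by 0.95 ± 0.218 without being called (adjusted p = 0.210). Striatum after TH had 54.8, 47.7, 48.6 and 37.0 CPM in mutant and 49.0, 39.7, 44.5 and 27.2 CPM in WT libraries, which overlap (log2 change 0.23, adjusted p = 1.00).

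**Figure D1:**
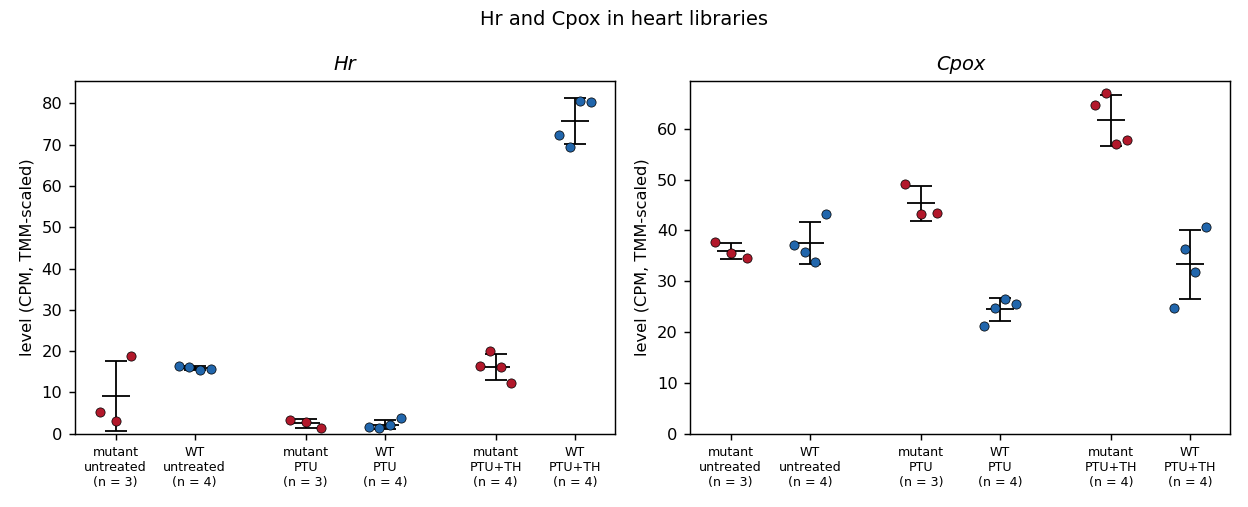
Levels of Hr and Cpox in CPM in each of the 22 heart libraries (points), with the group mean and SD (bars), mutant in red and WT in blue for each treatment. Hr is apart between the genotypes after TH, at 16.2 against 75.7 CPM, and Cpox is apart both with PTU and after TH.

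Hr and Cpox were the 2 genes called among 14156 tested, which is 0.0141% of them. Of these, 1 was higher and 1 lower, 0.00706% each. At an unadjusted p below 0.05 there were 1764 genes, 1083 higher and 681 lower. For 2478 genes, 17.5% of those tested, mutant and WT levels were apart in all 8 libraries, with 1518 (10.7%) higher and 960 (6.78%) lower in mutant hearts. In striatum the same comparison called 0 of 15670 genes, with 544 at an unadjusted p below 0.05. Between untreated hearts of the genotypes 0 genes were called, with 823 at an unadjusted p below 0.05, and between PTU hearts 311 (2.20%) were called.

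**Figure D2:**
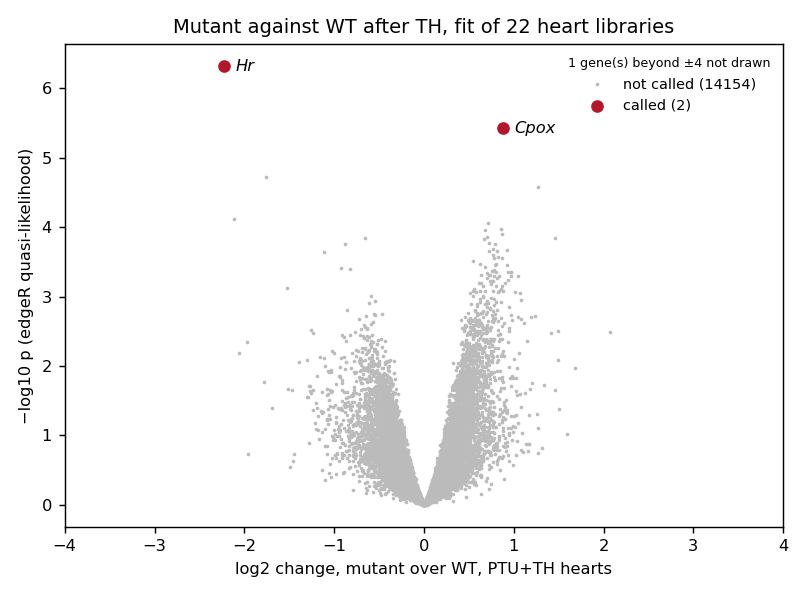
Log2 change of mutant over WT PTU+TH hearts (horizontal) against −log10 of the unadjusted p (vertical) for each gene tested in the fit of 22 heart libraries. The 2 called genes, Hr on the left and Cpox on the right, are in red, and 1 gene with a change beyond 4 (Bmp10) lies outside the axis.

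The number of genes called differed between fits. A fit of the 8 PTU+TH libraries alone called 857 of 13109 genes (6.54%), 594 (4.53%) higher and 263 (2.01%) lower in mutant hearts, and DESeq2 on the 22 libraries called 173 of the 8611 genes with an adjusted p (2.01%), 16 of them (0.186%) lower. The biological coefficient of variation was 15.2% in the 8 libraries and 23.5% over all 22, in which the median SD of log2 CPM ran from 0.150 in mutant PTU+TH hearts to 0.322 in untreated mutant hearts. Without any 1 of mutant replicates 1, 2 and 4 the fit of 8 libraries called 3, 3 and 9 genes, without mutant replicate 3 it called 1231, and without WT replicate 2 it called 53. These 857 genes differed from the rest in base composition. The median transcript GC content was 41.0% for the genes called higher and 56.6% for those called lower, against 49.6% over all genes tested.

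That trend ran through the whole transcriptome of the 8 hearts. In the decile of genes with the lowest GC content (median 39.3%) the median log2 change of mutant over WT was 0.39, and in the decile with the highest (median 59.4%) it was -0.33. PTU hearts showed medians of 0.35 and -0.29 in the same deciles, untreated hearts -0.16 and 0.20, and PTU+TH striatum -0.02 and 0.04. The mean log2 CPM of genes in the upper tercile of GC content minus that of genes in the lower tercile was -0.70, -0.71, -0.41 and -0.66 in mutant PTU+TH hearts, against 0.19, -0.29, -0.29 and -0.27 in WT PTU+TH hearts. Mutant replicate 3 was the nearest to WT, and WT replicate 1 stood apart from the other WT hearts in the opposite direction. The exact two-sided permutation p was 0.0286 (adjusted p = 0.126 over the 22 library measures compared). Whether GC content took part in any gene's difference was not tested. Changes were therefore also computed with an offset per library for GC content and transcript length in the fit of 22 libraries, and these values stand below beside the plain ones as changes with offsets. With these offsets the fit of 22 libraries still called 2 genes, Hr (log2 change -1.90, adjusted p = 0.0208) and Cpox (0.83, adjusted p = 0.0208), and the fit of 8 libraries called 122 genes (0.931%), of which 88 were among the 857.

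**Figure D3:**
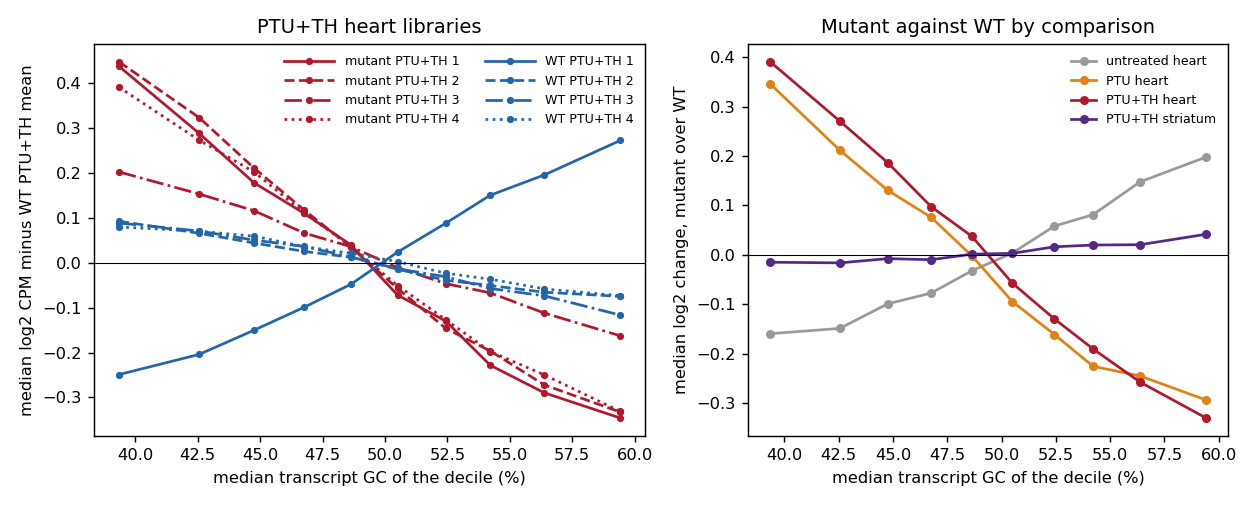
Genes in deciles by transcript GC content (horizontal, median percent per decile). Left, the median log2 CPM of each PTU+TH heart library minus the WT mean, mutant in red and WT in blue; right, the median log2 change of mutant over WT in 4 comparisons, with PTU+TH hearts falling from 0.39 in the lowest decile to -0.33 in the highest decile.

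Of 22 library measures compared between the genotypes none passed adjustment. With 4 against 4 libraries the exact permutation test cannot give a p below 0.0286, so even measures without overlap had an adjusted p of 0.126. The lack of calls therefore does not show that the groups are alike. Mitochondrially encoded genes took 39.5 ± 3.98% of gene counts in mutant and 32.9 ± 2.03% in WT hearts (SD, n = 4 each), with overlapping groups (exact permutation p = 0.0571, adjusted p = 0.180). Summed ventricular markers averaged 68854 CPM in mutant and 91391 CPM in WT hearts, summed smooth muscle and pericyte markers 2393 and 2688 CPM, and summed skeletal muscle markers 1833 and 2525 CPM, each without overlap (exact permutation p = 0.0286, adjusted p = 0.126 for each). The skeletal muscle sum is mostly Ckm and Acta1, which heart muscle also expresses. The largest member of the smooth muscle and pericyte sum is Des, another gene of heart muscle. Des had 1068 to 1277 CPM in mutant and 1266 to 1636 CPM in WT hearts. Of the 12 markers in that sum 10 had a negative change and 2, Rgs5 and Abcc9, a positive one. The labels number the mutant and the WT heart libraries in separate runs and state no preparation batch or date.

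Cardiac genes known to respond to TH gave different calls in different fits. In the fit of 22 libraries, Hr was the 1 called (lower) of 19 genes known to be raised by TH in heart, and 0 of 11 known to be lowered were called. With 0.0141% of all genes called in that fit, a count of 0 in a list of this size is near the background. The fit of 8 libraries called 3 of the 19 (Hr, Myh6 and Hcn2, all lower) and 3 of 10 known to be lowered (Myh7 and Thra lower, Pln higher), where 6.54% of all genes were called. Of these 6, Hr and Myh6 were also called in that fit with offsets. The medians were -0.20 and -0.23, beside -0.01 over all genes tested, and 0.05 and -0.14 with the GC and length offsets. A second pair of lists came from the WT libraries that the comparison did not use. Among the 428 genes (3.02%) that were lower in PTU than in untreated WT hearts the median change in mutant over WT PTU+TH hearts was -0.05 (0.03 with offsets), with 2 called by the fit of 22 libraries, Hr lower and Cpox higher. Among the 266 genes (1.88%) higher in PTU than in untreated WT hearts it was 0.04 (0.01 with offsets), with 0 called by the fit of 22 libraries. The fit of 8 libraries tested 409 of the genes lower in PTU and called 16 higher and 13 lower. Of the genes higher in PTU it tested 227 and called 2 higher and 3 lower. Over all genes it called 4.53% higher and 2.01% lower.

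Myh6, the fast cardiac myosin heavy chain, had 13328, 14360, 16273 and 15814 CPM in mutant PTU+TH hearts, against 24439, 20645, 27093 and 25628 CPM in WT PTU+TH hearts. The libraries did not overlap, and mutant hearts were at 61.1% of the WT mean, with a log2 change of -0.71 ± 0.564 (95% interval -1.88 to 0.46, adjusted p = 0.614). In the fit of 8 libraries the adjusted p was 0.0173, and 0.0337 with GC and length offsets, where the log2 change was -0.49. Mhrt, a transcript antisense to the cardiac myosin genes, had a log2 change of -0.35 ± 0.511 (-0.18 with offsets); the labels do not state the strand setting of the counting, so overlapping antisense genes may share reads. With PTU alone the order was reversed and far larger: Myh6 had 13714, 4875 and 7473 CPM in mutant and 21.2, 69.8, 102 and 488 CPM in WT hearts (log2 change 5.67 ± 0.699, adjusted p = 6.96e-05).

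Myh7, the slow myosin that TH lowers, was also at a lower level in mutant PTU+TH hearts, with 2928, 3576, 3879 and 3585 CPM against 5610, 4254, 6138 and 6115 CPM in WT PTU+TH hearts. The groups did not overlap, but the log2 change of -0.66 ± 0.381 was not called in the fit of 22 libraries (adjusted p = 0.478), and it was -0.45 with GC and length offsets. The other TH-responsive genes spread on both sides of 0. Atp2a2, the sarcoplasmic calcium pump, averaged 10022 ± 896 CPM in mutant and 8536 ± 965 CPM in WT hearts (log2 change 0.23, adjusted p = 0.720; 0.17 with offsets). Pln, which inhibits that pump, averaged 6806 ± 207 and 4862 ± 563 CPM in mutant and WT hearts, without overlap (0.49, adjusted p = 0.379; 0.09 with offsets). Hcn2 averaged 24.3 ± 2.56 CPM in mutant and 33.1 ± 3.59 CPM in WT hearts (-0.44, adjusted p = 0.449), and with the offsets its change was -0.02. Ucp3, a mitochondrial carrier, had a log2 change of -0.42 (adjusted p = 0.678; -0.28 with offsets) and Klf9, a TH-induced transcription factor, one of 0.44 (adjusted p = 0.595; 0.37 with offsets); both overlapped between the groups.

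The fit of 22 libraries called neither receptor gene, and that of 8 libraries called Thra lower (adjusted p = 0.0458). Thra had 41.6, 35.6, 43.3 and 35.8 CPM in mutant hearts and 69.3, 52.7, 46.4 and 50.3 CPM in WT hearts, without overlap (log2 change -0.49 ± 0.191, adjusted p = 0.307 in the fit of 22), and its change was -0.14 with the offsets. Thrb averaged 33.3 ± 7.16 CPM in mutant and 26.4 ± 5.51 CPM in WT hearts, which overlapped (0.33 ± 0.202, adjusted p = 0.505; 0.12 with offsets). Of 15 tested genes for TH receptors, transporters and deiodinases the fit of 22 libraries called 0 (median -0.01, and 0.04 with offsets). Of 20 genes of corepressor complexes it called 1, Hr itself (median -0.09, and -0.06 with offsets); Gps2, a subunit of the NCoR complex, had the next smallest p, with 19.4 ± 2.34 CPM in mutant and 26.9 ± 3.05 CPM in WT hearts (-0.47, adjusted p = 0.216, and 0.0204 by DESeq2; -0.21 with offsets).

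Several genes that respond strongly to TH in these hearts were not called between the genotypes after TH in the fit of 22 libraries. They were picked in view of that response, which shares the WT PTU+TH libraries, so their levels are a description. Ighm, the immunoglobulin heavy constant mu gene, had 73.9, 55.0, 91.0 and 91.6 CPM in mutant and 76.9, 81.0, 60.3 and 87.5 CPM in WT PTU+TH hearts (log2 change 0.03, 95% interval -0.36 to 0.41; 0.13 with offsets), where PTU hearts had 3.24 to 5.59 CPM in mutant and 2.91 to 4.41 CPM in WT mice. Rgs7, a regulator of G-protein signalling, had 18.9, 29.0, 21.2 and 29.5 CPM in mutant and 17.2, 19.3, 28.6 and 27.0 CPM in WT hearts (0.10, interval -0.49 to 0.68; -0.35 with offsets). Lrat, the retinol esterifying enzyme, averaged 29.4 ± 2.97 CPM in mutant and 20.8 ± 3.70 CPM in WT hearts without overlap (0.50, adjusted p = 0.672, and 0.0478 in the fit of 8; 0.19 with offsets). Nudt18, a nucleotide hydrolase and a neighbour of Hr, averaged 24.3 ± 3.22 and 21.2 ± 2.34 CPM in mutant and WT hearts (0.20, adjusted p = 0.730; 0.34 with offsets). Lypd8l had 74.7, 112, 87.4 and 48.6 CPM in mutant and 48.4, 37.2, 46.0 and 45.6 CPM in WT hearts (0.87, adjusted p = 0.389, and 0.0324 in the fit of 8; 0.70 with offsets), and Tlcd2 and Prss55 had log2 changes of -0.02 (0.20 with offsets) and -0.22 (-0.06 with offsets) with overlapping groups. The intervals of Lrat (-0.45 to 1.44) and Lypd8l (0.02 to 1.71) reach beyond 1 on the log2 scale, so a difference of that size lies within both.

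**Figure D4:**
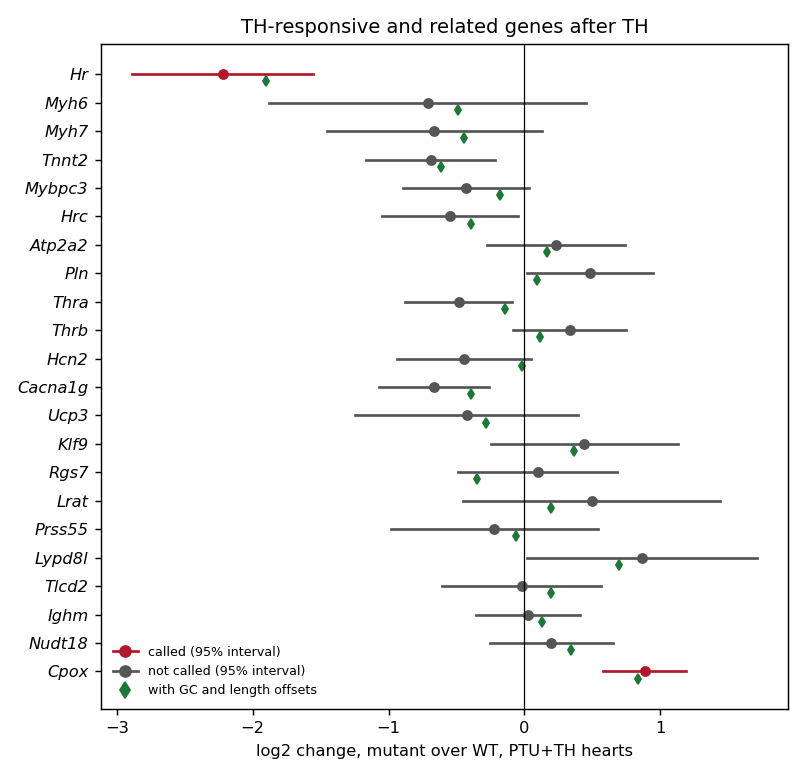
Log2 change of mutant over WT PTU+TH hearts for 22 named genes, with the 95% interval (lines) from the fit of 22 libraries and the value with GC and length offsets (green diamonds). The intervals of Hr and Cpox, in red, are the 2 called, and the other genes are in grey. Of these, Tnnt2, Hrc, Pln, Thra, Cacna1g and Lypd8l have intervals that leave out 0 but did not pass adjustment over 14156 genes.

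The genotype difference after TH could be set against that with PTU in 1 fit. It differed for 41 genes (0.290% of those tested), 39 of them (0.276%) with a lower and 2 (0.0141%) with a higher value after TH. The split was 47 lower and 7 higher among 54 genes (0.381%) with GC and length offsets, and 64 lower and 12 higher with DESeq2. Hr was among the 39. So were Myh6, Rgs7, Lrat, Prss55, Lypd8l and Tlcd2, with log2 differences of -6.38, -3.96, -6.93, -5.73, -5.43 and -2.93. The test shares its libraries with both single comparisons, so their values are given side by side: the change of mutant over WT was -0.71 after TH and 5.67 with PTU for Myh6, 0.10 and 4.06 for Rgs7, 0.50 and 7.43 for Lrat, -0.22 and 5.51 for Prss55, 0.87 and 6.30 for Lypd8l, and -0.02 and 2.91 for Tlcd2. For Hr the 2 changes were -2.22 after TH and 0.23 with PTU. Rgs7, Lrat, Prss55, Lypd8l and Tlcd2 were picked in view of a response to TH that shares these WT libraries. A large WT response favours a lower value after TH in this test, so their direction is a description. Lrat, for instance, had 9.25, 2.20 and 0.981 CPM in mutant PTU hearts, while 3 of 4 WT PTU hearts were at 0 and the fourth at 0.0654 CPM, which makes the size of that fitted difference depend on the prior count. Against untreated hearts the genotype difference after TH was called for 0 genes by edgeR (2111 at an unadjusted p below 0.05) and for 122 by DESeq2.

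Contractile genes were called in the fit of 8 libraries and not in that of 22. All 11 tested genes of the thick filament and its antisense transcript had a negative change (median -0.35), as had 11 of 12 genes of the thin filament (median -0.42) and 11 of 12 ventricular markers (median -0.48), which share members with both; over all genes tested 48.6% of changes were positive. The fit of 8 libraries called 3 of the 11, 4 of the 12 and 5 of the 12 lower, where 2.01% of all genes were called lower. With offsets in that fit, Myh6 (adjusted p = 0.0337) and Tnnt2 (adjusted p = 0.0341) were called. With the GC and length offsets the 3 medians were -0.18, -0.25 and -0.22, and the part of the lower summed ventricular markers in them was not tested. Tnnt2, cardiac troponin T, had 4410, 4726, 6402 and 5107 CPM in mutant and 10240, 7755, 7386 and 7904 CPM in WT hearts, without overlap (-0.69 ± 0.229, adjusted p = 0.253; -0.61 with offsets). Mybpc3, cardiac myosin-binding protein C, averaged 2043 ± 189 and 2754 ± 281 CPM in mutant and WT hearts (-0.43, adjusted p = 0.436; -0.18 with offsets), and Tnnt1, the slow skeletal troponin T, 10.5 ± 2.14 and 17.3 ± 1.99 CPM (-0.72, adjusted p = 0.293; -0.54 with offsets). Irx4, a ventricular transcription factor, averaged 22.5 ± 0.711 CPM in mutant and 33.6 ± 5.82 CPM in WT hearts (-0.58, adjusted p = 0.217; -0.21 with offsets). Of 18 calcium-handling genes, with a median of 0.02 (-0.03 with offsets), the fit of 22 libraries called 0; Hrc, a calcium-binding protein of the sarcoplasmic reticulum, had the smallest p (-0.55, adjusted p = 0.359; -0.39 with offsets), and the fit of 8 libraries with offsets called it (adjusted p = 0.0374).

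The fit of 22 libraries called 0 ion channel or metabolic genes. That of 8 libraries called 2 of 23 pacemaker and ion channel genes lower (Hcn2 and Cacna1g), 3 of 30 genes of fatty acid oxidation higher (Cd36, Hadhb and Lpl) and 2 of 24 of cholesterol and lipid synthesis lower (Srebf1 and Scd4). Over all genes the fit of 8 libraries called 4.53% higher and 2.01% lower. With offsets in that fit, Hcn2, Cacna1g, Cd36, Hadhb, Srebf1 and Scd4 were not called (adjusted p between 0.0528 and 0.924). The result of Lpl with offsets in that fit is not given here. Cacna1g, a T-type calcium channel, had 6.98, 6.50, 8.99 and 9.20 CPM in mutant and 13.3, 11.4, 14.0 and 11.7 CPM in WT hearts (-0.67 ± 0.197, adjusted p = 0.216, and 0.0485 by DESeq2; -0.39 with offsets). Among 23 pacemaker and ion channel genes it had the smallest p, and the inward rectifier Kcnj2 came next (0.47, adjusted p = 0.381; 0.12 with offsets); the median was -0.13, and 0.05 with offsets. For 30 genes of fatty acid oxidation the median was -0.07, and -0.04 with offsets. The fatty acid transporter Cd36 averaged 1408 ± 132 CPM in mutant and 956 ± 158 CPM in WT hearts without overlap (0.56, adjusted p = 0.251; 0.16 with offsets), and Hadhb, a subunit of the mitochondrial trifunctional protein, 386 ± 27.5 and 263 ± 39.5 CPM (0.55, adjusted p = 0.284; 0.17 with offsets). For 24 genes of glycolysis the median was -0.25, and -0.04 with offsets, with Gpi1 at -0.34 (adjusted p = 0.307; -0.22 with offsets) and Pgam2 at -0.54 (adjusted p = 0.330; -0.25 with offsets). For 25 genes of cholesterol and lipid synthesis it was -0.23, and -0.10 with offsets. The lipogenic regulator Srebf1 averaged 27.2 ± 4.35 CPM in mutant and 39.3 ± 6.33 CPM in WT hearts (-0.52, adjusted p = 0.294; -0.23 with offsets), and the desaturase Scd4 5.19 ± 1.09 and 9.42 ± 1.96 CPM (-0.86, adjusted p = 0.369; -0.86 with offsets).

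The 13 mitochondrially encoded protein genes all had a positive change (median 0.39), but their median was -0.06 with the GC and length offsets. Of 42 nuclear genes of oxidative phosphorylation 21 had a positive change (median -0.01, and -0.0026 with offsets). The fit of 8 libraries called 1 of the 13 and 2 of the 42 higher, where 4.53% of all genes were called higher, and that of 22 called 0. mt-Nd2, a subunit of complex I, had 53764, 54410, 39835 and 58750 CPM in mutant and 29516, 38781, 35610 and 35076 CPM in WT hearts (0.57 ± 0.324, adjusted p = 0.471; 0.08 with offsets). The large mitochondrial ribosomal RNA mt-Rnr2 had 22136, 19372, 16691 and 18351 CPM in mutant and 7416, 10353, 9072 and 11471 CPM in WT hearts, without overlap (1.00 ± 0.344, adjusted p = 0.258; 0.50 with offsets). The fit of 8 libraries called mt-Rnr2 higher (adjusted p = 0.0173, and 0.0337 with offsets in that fit). Of the nuclear genes, Uqcrc1 of complex III and Cox5b of complex IV had changes of -0.46 (adjusted p = 0.324; -0.30 with offsets) and -0.44 (adjusted p = 0.387; -0.43 with offsets).

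**Figure D5:**
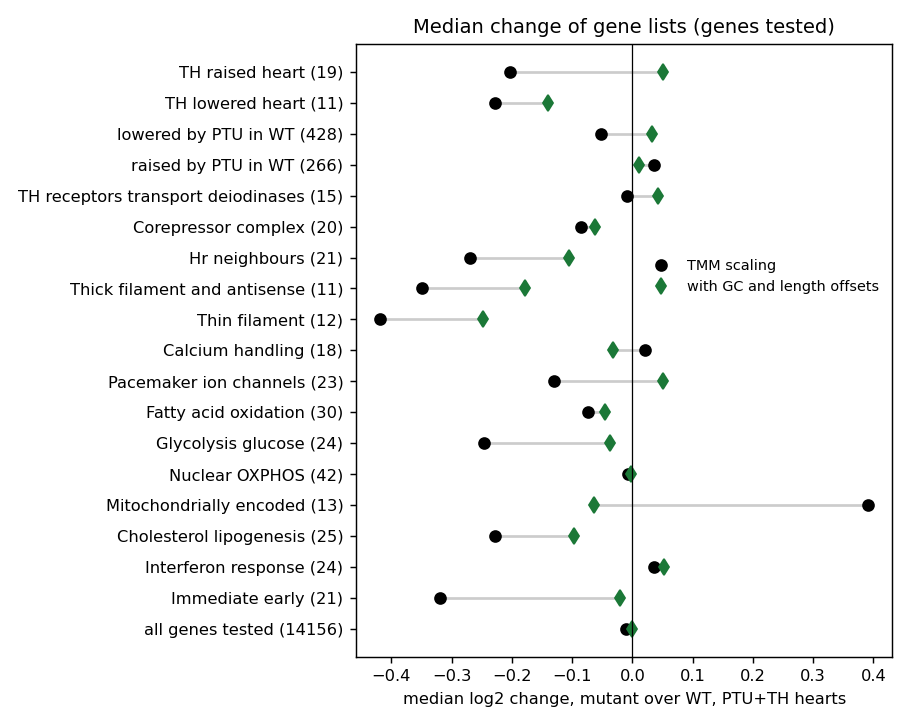
Median log2 change of mutant over WT PTU+TH hearts in 18 gene lists and over all genes tested, from TMM scaling (black circles) and with GC and length offsets (green diamonds). The thick and thin filament lists stay below 0 on both, while the median of the mitochondrially encoded genes is 0.39 on one and -0.06 on the other.

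In lists of immediate early, matrix, interferon, retinoid and NAD, clock, heat-shock and adrenergic genes the fit of 22 libraries called 0 members, and that of 8 called 1, Lrat, where 6.54% of all genes were called. Immediate early genes had a median of -0.32 (21 genes), and -0.02 with offsets, with Junb at -0.47 (adjusted p = 0.448; -0.08 with offsets). The median of 28 extracellular matrix genes was -0.05, and 0.02 with offsets; Loxl1 was at -0.56 (-0.16 with offsets) and Col6a2 at -0.48 (-0.26 with offsets). For 24 interferon-response genes it was 0.04, and 0.05 with offsets; Ifit2 was at 0.48 (0.21 with offsets) and Rsad2 at 0.52 (0.33 with offsets). For 16 retinoid and NAD genes it was 0.09, and 0.04 with offsets; Nampt was at 0.61 (0.28 with offsets) and Rdh10 at 0.43 (0.34 with offsets). The 18 clock genes had a median of 0.11, and 0.24 with offsets; Nr1d2 was at 0.69 (adjusted p = 0.383; 0.41 with offsets). The 15 heat-shock genes had a median of 0.08, and 0.18 with offsets, and mutant replicate 1 held the highest level of both Chordc1 (104 CPM) and Hsp90aa1 (200.2 CPM). Of 20 adrenergic and muscarinic signalling genes, whose median was 0.06 (0.04 with offsets), Grk2, a receptor kinase, was at -0.33 (adjusted p = 0.328; -0.06 with offsets).

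Of the genes around Hr in the genome 21 were tested, Hr included, and the fit of 22 libraries called Hr alone. DESeq2 also called Polr3d lower (adjusted p = 0.0297), and the fit of 8 libraries called 5 of 20 lower, Hr, Polr3d, Ccar2, Fhip2b and Dmtn, where 2.01% of all genes were called lower. Their median was -0.27, and -0.10 with GC and length offsets. Polr3d, an RNA polymerase III subunit, averaged 12.2 ± 1.84 CPM in mutant and 17.8 ± 1.67 CPM in WT hearts (-0.55, adjusted p = 0.216; -0.36 with offsets), and Ccar2, a cell-cycle regulator, 13.1 ± 1.64 and 18.9 ± 1.20 CPM (-0.53, adjusted p = 0.237; -0.32 with offsets). With offsets in the fit of 8 libraries, Polr3d (adjusted p = 0.214) and Ccar2 (adjusted p = 0.0944) were not called. The results of Fhip2b and Dmtn with offsets in that fit are not given here. The transcripts of Polr3d and Ccar2 had 54.8% and 55.1% GC, against a median of 49.6% over all genes tested. Of the 21 genes, 7 did not overlap between the groups, Hr among them, and all 7 were lower in mutant hearts. That is 33.3%, where 6.78% of all genes were lower without overlap and 17.5% were apart in either direction.

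Below Hr and Cpox the smallest p-values belonged to genes of low or moderate level. Mylpf, a fast skeletal myosin light chain, had 2, 4, 4 and 4 counts in mutant and 11, 13, 19 and 12 counts in WT libraries (log2 change -1.76 ± 0.328, adjusted p = 0.0902; -1.64 with offsets), and the olfactory receptor gene Or5m3b had 13.5, 14.5, 9.99 and 7.75 CPM in mutant and 4.46, 4.67, 4.94 and 4.89 CPM in WT hearts (1.26 ± 0.242, adjusted p = 0.0943; 0.68 with offsets). In the fit of 8 libraries the adjusted p was 0.0221 for Mylpf and 0.0173 for Or5m3b. With offsets in that fit it was 0.0445 for Mylpf and 0.0967 for Or5m3b. Among the genes that shared an adjusted p of 0.151 were Dcun1d1 (0.72, and 0.36 with offsets), Rab18, a small GTPase (0.70, and 0.33), Spcs3, a signal peptidase subunit (0.77, and 0.43), Tmem144 (0.79, and 0.58) and Tkt, the transketolase of the pentose phosphate pathway (-0.66, and -0.46). DESeq2 called these 5 genes (adjusted p between 0.00315 and 0.00750). In the fit of 8 libraries with offsets Selenok, a selenoprotein of the endoplasmic reticulum, had the smallest p among the genes named here after Hr: it had 40.0, 44.4, 38.4 and 37.7 CPM in mutant and 20.0, 23.4, 21.2 and 22.7 CPM in WT hearts, without overlap (0.88 ± 0.290, adjusted p = 0.251 in the fit of 22 libraries and 0.00326 in that fit; 0.74 with offsets). The myosins Myh11, of smooth muscle, and Myh9, non-muscle, were lower in level at 35.9 ± 2.17 against 61.5 ± 7.67 CPM and 111 ± 6.04 against 167 ± 19.6 CPM in mutant against WT hearts (log2 changes -0.78 and -0.60, adjusted p = 0.438 and 0.542; -0.65 and -0.35 with offsets), and the nuclear protein gene Safb at 34.3 ± 3.12 against 53.0 ± 2.55 CPM (log2 change -0.63, adjusted p = 0.364; -0.44 with offsets). The fit of 8 libraries called Myh11, Myh9 and Safb (adjusted p = 0.0173, 0.0217 and 0.0173), which were named after their values were seen. With offsets in that fit, Myh11 (adjusted p = 0.0183) and Safb (adjusted p = 0.0337) were called, and Myh9 was not (adjusted p = 0.0610).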

How the data were processed

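Total RNA of mouse heart was made into libraries with the Lexogen CORALL V2 kit from 1 ug of RNA, per the labels' protocols. Each deposited file holds raw gene counts of 1 library, with 57010 genes and 5 lines for reads given to no gene, which were dropped; those lines held 27.9 to 31.9% of reads aligned to more than 1 place, 3.53 to 5.06% with no feature and 0.607 to 0.811% ambiguous in the 8 libraries. Alignment and counting used Bowtie2, HTSeq and GRCm39, per the submitters' processing notes; annotation, strand setting and molecular identifiers: not given in the sources used here. The 22 heart libraries were fitted together in edgeR 4.0.16 (R 4.3.3), with 1 coefficient for each of 6 groups, TMM scaling, filterByExpr (minimum count 10; 14156 genes kept), the two-sided quasi-likelihood F test and Benjamini-Hochberg adjustment over all genes tested; genes were called at an adjusted p below 0.05. Levels are CPM after TMM scaling. Alternatives were DESeq2 1.42.0, other scalings and filters, left-out libraries, a replicate block, the 8 libraries alone and, added after seeing the data, lowess offsets per library for GC content and length of the longest GENCODE M21 transcript (98.5% of genes matched by identifier). The code was tested on simulated data. Named are Hr, the called genes, up to 2 members with the smallest p of each of 38 lists, and Myh6, Myh7, Atp2a2, Pln, Thra, Thrb, Ighm, Rgs7, Lrat and Nudt18. Mhrt, Hcn2, Ucp3, Klf9, Prss55, Lypd8l, Tlcd2, mt-Rnr2, Gps2, Polr3d, Ccar2, Or5m3b, Dcun1d1, Rab18, Spcs3, Tmem144, Tkt, Selenok, Myh11, Myh9, Safb, Lpl, Fhip2b and Dmtn were added after their values were seen. The comparison and the lists were chosen with earlier results of these data known.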

Additional observations from a re-analysis of the deposited data

Results flagged for a closer look

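For 63 genes, the named ones without Lpl, Fhip2b and Dmtn and with Lad1, both groups of 4 libraries were checked. In 14 of these 126 groups (11.1%), the level in 1 library lay far from the other 3. Chance alone flags about 1 in 20, and genes of 1 library are not independent. Among mutant PTU+TH hearts, replicate 1 was low for Srebf1 (20.7 CPM) and Mylpf (0.191 CPM) and high for Hsp90aa1 (200.2 CPM). Replicate 2 was high for Hadhb (427 CPM) and low for Irx4 (21.4 CPM) and Polr3d (9.46 CPM), and replicate 3 was high for Uqcrc1 (705 CPM). Bmp10, an atrial gene, stood at 112.0 CPM in mutant replicate 4, where atrial markers summed to 2282 CPM, and at 0, 0 and 0.191 CPM in the other mutant hearts. Among WT PTU+TH hearts, replicate 1 was high for Hcn2 (38.5 CPM), Uqcrc1 (1072 CPM) and Cox5b (533 CPM), replicate 2 was low for Nudt18 (17.7 CPM), and replicate 3 was high for Polr3d (20.3 CPM) and Bmp10 (0.803 CPM).

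For 7 named genes the genotype difference after TH differed from that with PTU by the interaction test. The log2 differences were -2.45 for Hr, -6.38 for Myh6, -3.96 for Rgs7, -6.93 for Lrat, -5.73 for Prss55, -5.43 for Lypd8l and -2.93 for Tlcd2. In the fit of 22 libraries Hr was called between the genotypes after TH and not with PTU, and the other 6 were called with PTU and not after TH. The fit of the 8 PTU+TH libraries also called Myh6 lower and Lrat and Lypd8l higher after TH (adjusted p = 0.0173, 0.0478 and 0.0324).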

How the results depend on the processing

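The count of 2 called genes was 857 with only the 8 PTU+TH libraries, 122 with those libraries and GC and length offsets, 39 without a filter on low counts and 173 with DESeq2, and 0 to 3 when each PTU+TH library was left out. It stayed at 2 under RLE and upper quartile scaling, a CPM filter, GC and length offsets and without untreated mutant replicate 2. The count of 41 genes whose difference after TH differed from that with PTU was 136 without a filter, 76 with DESeq2 and 54 with GC and length offsets, and 11 to 68 when 1 library was left out. Against untreated hearts the count of 0 was 139 without a filter and 122 with DESeq2, and 0 to 631 when 1 library was left out (631 without untreated mutant replicate 1). The 857 of the 8-library fit were 122 with GC and length offsets, 1620 with DESeq2 and 1708 without a filter, and 3 to 1231 with 1 library left out; with 3 against 4 libraries fewer degrees of freedom remain. Hr ranged from -2.34 to -2.11 when libraries were left out. The deviations of same-numbered mutant and WT hearts from their group means had correlations of 0.084, 0.076, -0.42 and 0.19. These correlations alone cannot decide whether the numbers pair the libraries, and the labels state no preparation batch. With a replicate block the counts were 2 for the main comparison, 49 and 0 for the differences against PTU and untreated, and 3 for the 8-library fit, and Hr was at -2.20 (adjusted p = 0.0165).

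Changes near 0 turned sign. Rgs7 was at -0.35 with GC and length offsets and -0.37 with these in the 8 libraries alone, and ranged from -0.017 (without WT replicate 1) to 0.22 with libraries left out. Tlcd2 was at 0.20 and 0.19 with offsets in 22 and in 8 libraries, and ranged from -0.11 to 0.059 with libraries left out, above 0 without WT replicate 2 or mutant replicate 2 or 4. Ighm was at -0.030 under upper quartile scaling and ranged from -0.070 to 0.16 with libraries left out, below 0 without WT replicate 3 or mutant replicate 3 or 4. The cause of these shifts was not tested. Of the values for 63 genes, 1048 kept direction and call, 8 lost a call (Hr and Cpox), 56 gained one and 12 turned sign. The 63 include Lad1, which is not described above, and leave out Lpl, Fhip2b and Dmtn. With 4 libraries a group, log2 intervals of single genes were about as wide as those of Myh6 (-1.88 to 0.46) or Cpox (0.58 to 1.19).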
